A study of Mus musculus with 6 samples.

Results

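The genes described here belong to haem breakdown and iron handling: Hmox1, Hmox2, Blvra, Blvrb, Fth1, Slc40a1, Tfrc and Nqo1, 8 of the 18193 genes with a probe set of their own on the array. They were chosen by name around Hmox1, which was itself selected on its RNA level in mutant against wild-type hearts, so the values of that contrast are given as a description without a test. Every probe set annotated to one of these genes alone was read, 15 in all, of which 3 are Affymetrix control probe sets of Tfrc. The data are RNA profiles of hearts from 6 mice on Affymetrix Mouse430_2 arrays. The EphB4 mutant group held 3 hearts and the wild-type group 3, all of strain C57B6 in the labels. The sources used here name neither the age of the mice nor the kind of mutation and how it was made. The study's title concerns signalling through ephrin-B2, a ligand of the EphB4 receptor, while the ventricular wall forms. Sample descriptions open with the letters eM for mutant 3 and wild-type 3, and with eI for mutants 1 and 2 and wild-types 1 and 2. The labels do not explain these letters, and the 4 combinations of genotype and letters hold 1 or 2 hearts each. Nothing in the labels says whether any hearts share a litter, so p-values measure only the spread between these 6 hearts.

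Haem released from haemoglobin or other proteins is opened by haem oxygenase to biliverdin, carbon monoxide and iron. Biliverdin reductases then turn biliverdin into bilirubin, and the iron is stored in ferritin or leaves the cell through ferroportin. Iron enters most cells bound to transferrin through the transferrin receptor, and iron-responsive elements in the ferritin, ferroportin and transferrin receptor mRNAs tie their use to the iron of the cell. In tissues, recycling of haem iron is a known task of macrophages, and red cell precursors are the largest users of iron. Several genes of this set, such as Hmox1, Nqo1 and Fth1, are known targets of the stress-responsive factor NRF2, which binds antioxidant response elements.

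Levels are normalized log2 intensities (RMA, robust multi-array average), so a difference of 1 is a doubling, and levels of different probe sets are not compared with each other. Array medians lay between 5.89 and 6.01. Heart muscle markers were high in all hearts, with Actc1, the cardiac actin, between 14.40 and 14.65 and Myl2, the ventricular myosin light chain, between 14.58 and 14.74. Ephb4 read 7.93 to 8.14 in mutant and 7.83 to 8.20 in wild-type hearts, which does not check the labels because the mutation is not described. The eM hearts stood apart on measures of RNA and labelling. The beta-actin 3-prime minus 5-prime difference was 0.51 and 0.77 in eM hearts and 0.28 to 0.41 in eI hearts, and a probe set of 18S ribosomal RNA read 10.48 and 11.17 in eM and 9.80 to 10.16 in eI hearts. Sex also differed: Xist was low in mutants 1 and 3 (6.73 and 6.78) and high in mutant 2 and all wild-type hearts (11.51 to 12.33). The part of RNA quality, sex and cell makeup in the results below was not tested beyond the values printed beside them.

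Promoter windows from RefSeq (build GRCm38.p6) were found for 6 of the 8 genes, all but Hmox1 and Slc40a1. Those of both biliverdin reductases and of Fth1 are shown because Blvrb and Fth1 were among the members lower in eM hearts, and Blvra is the counterpart of Blvrb. Each runs from 250 bases before to 50 after an annotated start, 5′ to 3′ on the plus strand; for Blvrb the upstream and for Fth1 the downstream of the 2 annotated windows was taken. Capitals mark a match to the core of the antioxidant response element, TGANNNNGC, on either strand.
Blvrb, chr7:27447728-27448027: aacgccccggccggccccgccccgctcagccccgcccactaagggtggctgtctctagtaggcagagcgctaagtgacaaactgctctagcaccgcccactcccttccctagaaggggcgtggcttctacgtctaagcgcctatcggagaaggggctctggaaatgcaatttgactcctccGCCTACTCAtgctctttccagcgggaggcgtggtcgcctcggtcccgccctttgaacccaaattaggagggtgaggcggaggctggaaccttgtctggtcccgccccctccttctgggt
Blvra, chr2:127070407-127070706: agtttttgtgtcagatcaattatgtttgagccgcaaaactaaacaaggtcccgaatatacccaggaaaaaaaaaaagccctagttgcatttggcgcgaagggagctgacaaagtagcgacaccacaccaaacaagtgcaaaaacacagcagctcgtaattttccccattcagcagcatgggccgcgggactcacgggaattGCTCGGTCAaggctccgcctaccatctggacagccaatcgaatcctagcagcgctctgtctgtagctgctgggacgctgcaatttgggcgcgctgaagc
Fth1, chr19:9982396-9982695: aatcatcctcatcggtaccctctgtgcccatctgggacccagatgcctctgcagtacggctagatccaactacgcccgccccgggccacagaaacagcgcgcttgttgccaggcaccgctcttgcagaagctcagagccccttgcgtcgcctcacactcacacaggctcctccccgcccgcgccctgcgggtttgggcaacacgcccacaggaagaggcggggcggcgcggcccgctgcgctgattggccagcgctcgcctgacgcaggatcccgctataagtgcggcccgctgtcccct
The Blvrb and Blvra windows shown each held 1 match and that of Fth1 held 0. The Blvrb window not shown, at chr7:27452168-27452467, held 2, and the Fth1 window not shown held 0. Of all 32851 windows of this length, 41.3% held at least 1 match, so a match is common and describes letters only. The GC box GGGCGG occurred 5 times in Blvrb, 0 times in Blvra and 3 times in Fth1 on either strand, and 35.7% of windows held one. The CCAAT box occurred 0 times in Blvrb, once in Blvra and once in Fth1, with 37.4% of windows holding one. No GC or CCAAT box overlapped a capital stretch in these windows.

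Hmox1, the inducible haem oxygenase (chromosome 8, 75093618 to 75100593 in GRCm38.p6), stood higher in every mutant heart than in any wild-type heart. Its only probe set read 7.89, 7.997 and 7.73 in mutants 1, 2 and 3, and 7.57, 7.52 and 7.62 in wild-types 1, 2 and 3. The groups did not overlap, and the order from the top was mutant 2, mutant 1, mutant 3, wild-type 3, wild-type 1 and wild-type 2. The mean was 7.87 ± 0.13 in mutant and 7.57 ± 0.05 in wild-type hearts (SD, n = 3 each), a difference of 0.30 or 1.23-fold. The neighbours mutant 3 and wild-type 3, which are the eM hearts, lay 0.12 apart, less than the SD of the mutant hearts, whereas the eI means differed by 0.39. Both hearts low in Xist were mutant, and with the Xist level as a covariate the difference was 0.44. Because Hmox1 was chosen for this separation, no test is given, and 2.4% of all tested probe sets were likewise higher in the mutant without overlap.

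The other members did not separate the genotypes. In GRCm38.p6 their genes lie on chromosome 1 (Slc40a1, 45908070 to 45926532), chromosome 2 (Blvra, 127070629 to 127097084), chromosome 7 (Blvrb, 27447978 to 27465981), chromosome 8 (Nqo1, 107388225 to 107403205), chromosome 16 (Hmox2, 4726361 to 4766742, and Tfrc, 32608896 to 32632794) and chromosome 19 (Fth1, 9980600 to 9985111). Hmox2, the constitutive haem oxygenase, read 10.80, 10.81 and 10.66 in mutants 1 to 3 and 10.92, 10.89 and 10.77 in wild-types 1 to 3. The mutant hearts overlapped the wild-type ones only through wild-type 3, and the difference was -0.10 over all hearts, -0.10 within eI and -0.11 within eM. Blvra, a biliverdin reductase, read 10.00, 10.11 and 9.59 in mutants and 10.27, 10.14 and 9.95 in wild-type hearts. Its mutant hearts were lower within both letters, by -0.15 in eI and -0.36 in eM, but mutants 1 and 2 lay above wild-type 3. Nqo1, a quinone reductase, read 6.07, 6.17 and 5.63 in mutant and 5.80, 6.16 and 5.48 in wild-type hearts, a difference of 0.14 with both letters alike (0.14 in eI, 0.15 in eM). Over the 11 member probe sets that passed the filter on dim probe sets, the median difference was 0.01, as it was over all 27022 tested (0.01). Over all tested probe sets limma called 0% between genotypes at an adjusted p under 0.05, with 0 of the 11 among them. Nothing is read from that count, since Hmox1 was selected on this contrast. At an unadjusted limma p under 0.05 there were 316 of the 27022. Hmox1 was the only member probe set without overlap, and 0 were lower without overlap.

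**Figure D1:**
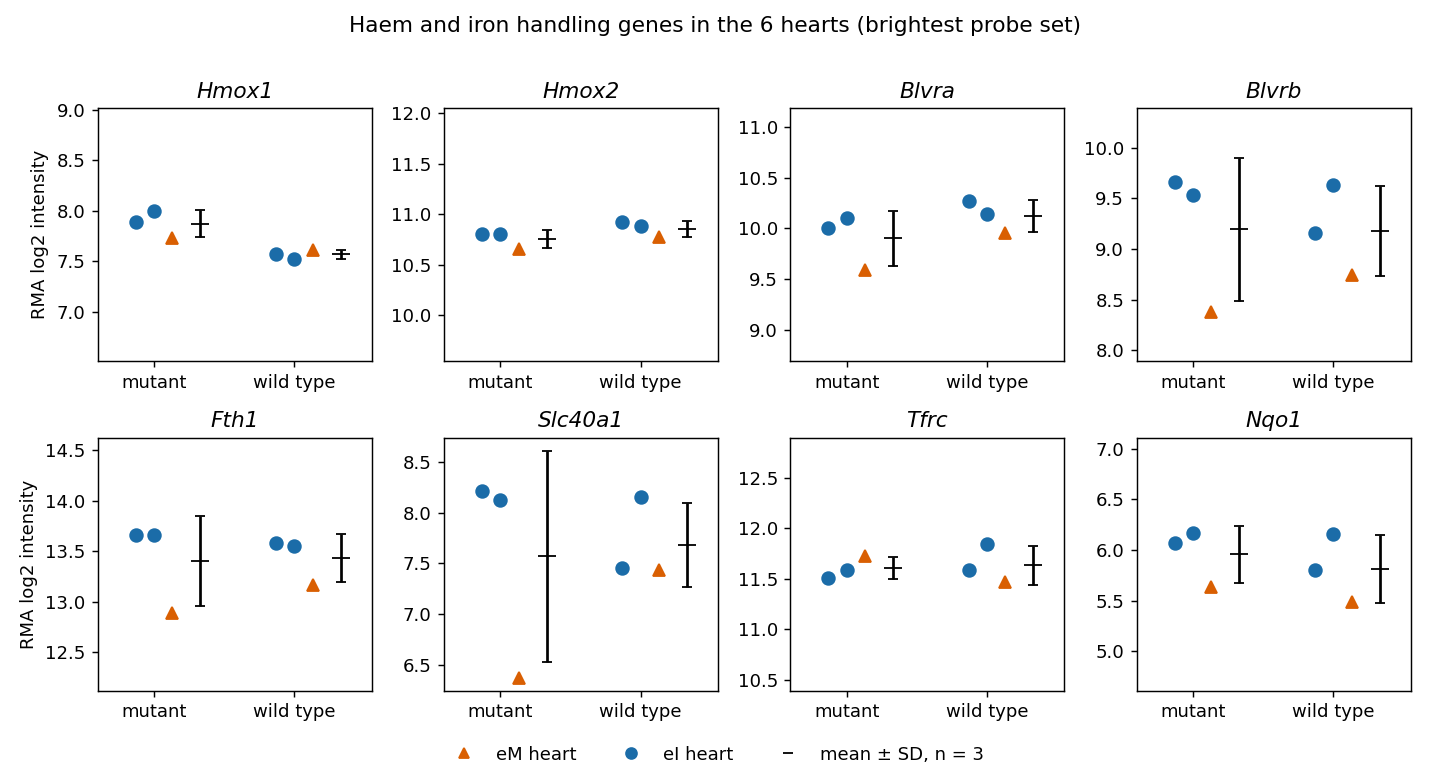
RMA log2 intensity of the brightest probe set of each of the 8 genes in every heart, mutant on the left and wild type on the right of each panel, with the mean and SD of 3 hearts. All vertical axes span the same range of log2 units. Hmox1 separates the genotypes (7.73 to 7.997 in mutant, 7.52 to 7.62 in wild-type hearts). In every gene but Hmox1 and Tfrc the eM hearts (triangles) sit lowest, which 20.3% of all tested probe sets share. Mutants 1 and 2 nearly coincide for Fth1.

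The letters set the members apart more than the genotypes did. Blvrb, the second biliverdin reductase, which is abundant in red cells, Fth1, the ferritin heavy chain that stores iron, and Slc40a1, which encodes ferroportin, the iron exporter, were lower in eM than in eI hearts. In limma with genotype in the model, 3 of the 11 tested member probe sets passed an adjusted p of 0.05, 1 of each of these genes and all lower in eM. Of all 27022 probe sets, 4.94% were called lower and 6.75% higher in eM; 0 members were called higher. The median over the 11 was -0.40, against -0.01 over all tested probe sets, and 10 of the 11 differences were negative. In 8 of the 11, both eM hearts lay below all 4 eI hearts, and 20.3% of all tested probe sets did so too. These counts include a pair of probe sets each for Fth1, Slc40a1 and Tfrc, which are not independent. In RNA of heart tissue, fewer cells of a type and less RNA per cell cannot be told apart. Nor can the letters be told apart from the RNA measures above, which moved with them.

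Blvrb read 8.38 and 8.75 in the eM hearts (mutant 3 and wild-type 3), against 9.67, 9.54, 9.16 and 9.63 in eI mutants 1 and 2 and eI wild-types 1 and 2. The eM hearts were lowest in both genotypes, and among eI hearts wild-type 1 was lowest. The difference was -0.93 ± 0.19 (SE), 1.91-fold lower in eM (limma, adjusted p = 0.0289). It was -1.22 within mutant and -0.65 within wild-type hearts.

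Fth1 read 12.89 and 13.16 in eM and 13.66, 13.66, 13.58 and 13.55 in eI hearts (mutants 1 and 2, then wild-types 1 and 2) at its brighter probe set. The 4 eI hearts lay close together, and both eM hearts were below them. The difference was -0.59 ± 0.11 (SE), 1.504-fold lower in eM (limma, adjusted p = 0.0253). The second Fth1 probe set, with 12.50 and 12.75 in eM and 12.78 to 13.12 in eI hearts, gave -0.40 (limma, adjusted p = 0.122). The brighter one has the suffix for probes that can match several transcripts, and the mouse genome is known to hold processed copies of Fth1, so its signal may come from more than 1 locus.

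Slc40a1 had the widest spread of any member. Its brighter probe set read 6.37 and 7.43 in eM hearts, against 8.22, 8.13, 7.46 and 8.16 in eI mutants 1 and 2 and wild-types 1 and 2. Mutant 3 was far below the rest, while wild-type 3 and wild-type 1 were nearly level. The difference was -1.09 ± 0.34 (SE) and missed the threshold (limma, adjusted p = 0.0947), at -1.80 within mutant and -0.37 within wild-type hearts. The dimmer probe set read 5.98 and 6.39 in eM and 7.20, 7.31, 6.96 and 7.10 in eI hearts. There the eM hearts were clearly separate, by -0.96 ± 0.16 (SE) or 1.94-fold lower (limma, adjusted p = 0.017).

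Nqo1 and Blvra were lowest in the eM hearts as well but did not pass the threshold. Nqo1 read 5.63 and 5.48 in eM and 5.80 to 6.17 in eI hearts, a difference of -0.49 ± 0.12 (SE; limma, adjusted p = 0.0525) that was alike within mutant (-0.48) and wild-type hearts (-0.50). Blvra read 9.59 and 9.95 in eM and 10.00 to 10.27 in eI hearts, a difference of -0.36 with a 95% confidence interval of -0.60 to -0.12 (limma, adjusted p = 0.0712). For Hmox2 the eM hearts, at 10.66 and 10.77, were only slightly below the eI hearts at 10.80 to 10.92 (-0.14, interval -0.34 to 0.06). Hmox1 showed no such pattern: 7.73 and 7.62 in eM and 7.52 to 7.997 in eI hearts, a difference of -0.07 with an interval of -0.32 to 0.18 (limma, adjusted p = 0.699).

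Tfrc, the transferrin receptor through which cells take up iron, differed little by either grouping. Its brightest probe set read 11.73 and 11.47 in eM hearts, against 11.51, 11.58, 11.59 and 11.85 in eI hearts. The groups overlapped, and the difference was -0.03 with a 95% confidence interval of -0.36 to 0.30 (limma, adjusted p = 0.896). The second tested probe set lay between 6.39 and 6.48 in all hearts. Another, at 3.80 to 4.03, was left out as dim, and the 3 control probe sets of Tfrc read 5.74 to 5.92, 3.69 to 3.94 and 3.55 to 3.74 without a test. Thus 11 of the 12 ordinary member probe sets, covering all 8 genes, were tested.

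The calls between the letters rested on few hearts. With mutant 3 left out, limma called 0 of the 11 member probe sets (adjusted p = 0.301 for Blvrb and 0.224 for Fth1), and it called 1 of all probe sets against 3160 with every heart. Without mutant 1 it called 0 members and 1208 of all, without mutant 2 it called 0 and 815, and without wild-type 3 it called 2 and 1263. Without wild-type 1 it called 6 members and 4333 of all, and without wild-type 2 it called 4 and 3858. The Hmox1 difference, which was not called, turned to 0.07 without mutant 3. The difference kept its direction for Blvrb, Fth1, Slc40a1, Nqo1, Blvra and Hmox2 in all of these fits.

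**Figure D2:**
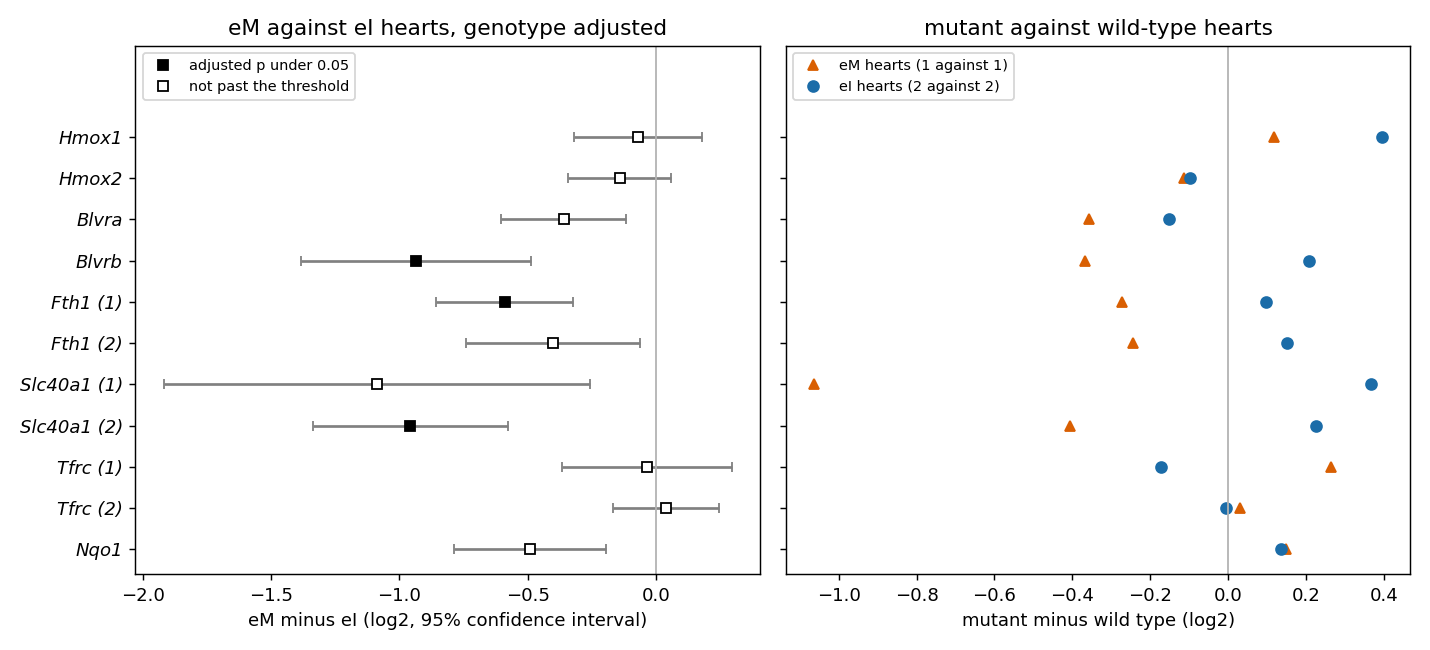
Differences of the 11 tested member probe sets on the log2 scale, with (1) the brighter and (2) the dimmer probe set of a gene. On the left, eM minus eI with 95% confidence intervals from limma and filled symbols for the 3 past the threshold (-0.93 for Blvrb, -0.59 for Fth1, -0.96 for Slc40a1). On the right, mutant minus wild type within eM (triangles) and within eI hearts (circles), where Slc40a1 (1) lies at -1.06 in eM and 0.37 in eI.

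For Blvrb, Fth1 and Slc40a1 the difference between genotypes had opposite signs in eM and in eI hearts. For Slc40a1 the mutant minus wild-type difference was -1.06 in eM and 0.37 in eI hearts at the brighter probe set, and -0.40 and 0.22 at the dimmer one. For Blvrb it was -0.37 in eM and 0.21 in eI, and for Fth1 -0.27 and 0.10 at the brighter and -0.24 and 0.15 at the dimmer probe set. Tfrc went the other way at its brightest probe set, 0.26 in eM and -0.17 in eI. The eM values rest on 1 heart per genotype. In 3 of the 11 member probe sets (the brighter of Fth1, the dimmer of Slc40a1 and the brightest of Tfrc) the eI hearts did not overlap between genotypes and the eM pair lay the opposite way. Of all tested probe sets 19.4% did so too, so the count among members is near the background. An interaction term of genotype and letters in limma called 0 of the 11 member probe sets and 0% of all tested (smallest adjusted p over all = 0.560). At an unadjusted limma p under 0.05 there were 2 of the 11, both of Slc40a1, and 1438 of the 27022.

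Markers of red cells and of macrophages moved with the same letters, as did lists of several other cell types. The 13 tested red cell genes, among them embryonic globins and the membrane transporter Slc4a1, averaged 8.41 and 8.49 in eM hearts and 8.94 to 9.68 in eI hearts, with 6 of 13 called lower in eM and 0 higher. Within eI, wild-type 1 was lowest for this list (8.94), as it was for Blvrb, for Slc40a1 and for the dimmer Fth1 probe set. This was not particular to red cells. The same heart was also lowest within eI for the macrophage (6.69), liver (6.65) and heart muscle lists (13.40). For the endothelial list it was lowest by very little (9.4217, with wild-type 2 at 9.4227). Among the pathway lists described below it was lowest within eI for all but NRF2, BACH1 and their targets. For fibroblasts and epicardium it was not (10.20, with wild-type 2 at 10.06). The 13 tested macrophage genes averaged 5.85 and 5.96 in eM and 6.69 to 7.08 in eI hearts, with 8 of 13 called lower and 0 higher. Among those called, Mrc1, C1qb and C1qc averaged 4.73, 5.06 and 4.82 in eM hearts. These means are below the cutoff for dim probe sets (5.38), so the 3 genes passed the filter only through the eI hearts. The receptor Csf1r differed by -1.64 and the complement gene C1qb by -1.95, while Lyve1 (0.31) and Stab1 (0.09) were not lower. Heart muscle genes averaged 13.49 and 13.53 in eM and 13.40 to 13.46 in eI hearts, with 0 of 13 called lower and 2 higher. The median difference was -0.70 over red cell, -1.14 over macrophage and -0.04 over heart muscle genes. It was -1.06 over 7 liver genes (1 called lower), -0.62 over 9 fibroblast and epicardial genes (2 lower, 1 higher) and -0.15 over 8 endothelial genes (1 lower). Of all 13572 tested genes, 5.7% were called lower and 4.3% higher in eM hearts, and lists this short cannot be set apart from that by 1 call. The liver, fibroblast and epicardial, and endothelial lists also averaged lower in both eM hearts than in every eI heart. The liver gene called was Afp, at 3.03 and 3.81 in eM and 7.77 to 11.83 in eI hearts (-5.83, limma, adjusted p = 0.0197). Both eM values were below the cutoff of 5.38, so Afp passed the filter only through the eI hearts, where it was high. The part of these cell types in the lower Blvrb, Fth1 and Slc40a1 levels was not tested. Between genotypes the lists overlapped: red cell genes averaged 8.41 to 9.60 in mutant and 8.49 to 9.68 in wild-type hearts, and macrophage genes 5.85 to 7.08 and 5.96 to 6.88. Their medians between genotypes were 0.13 and 0.11, beside the Hmox1 difference of 0.30.

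**Figure D3:**
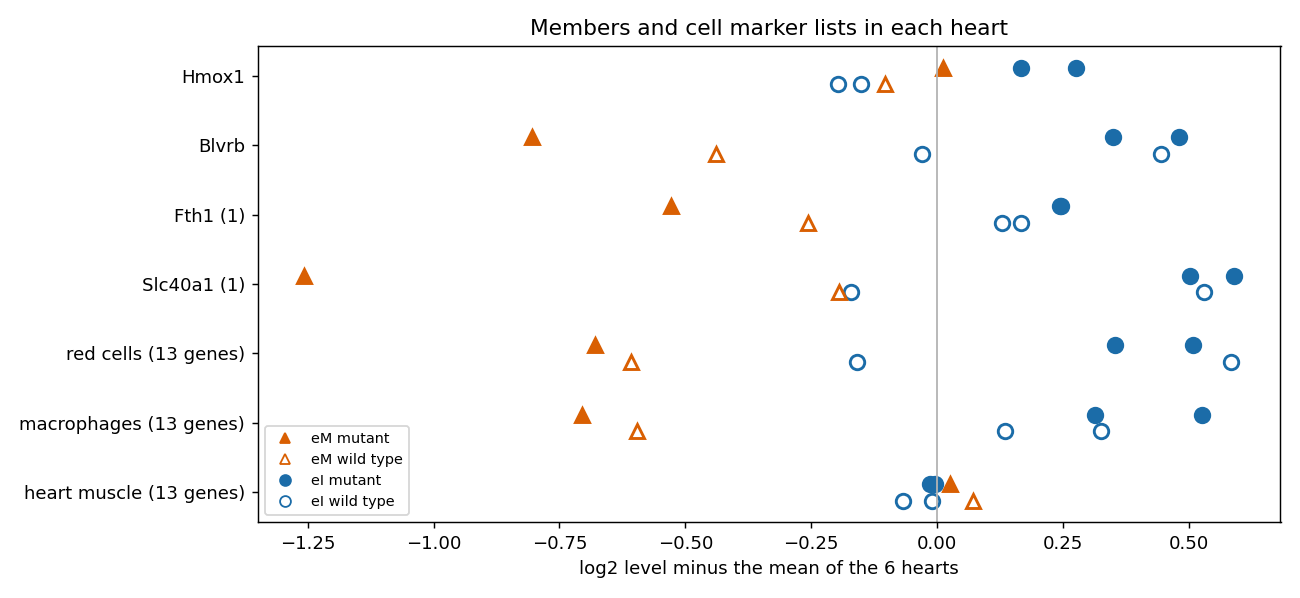
Level of Hmox1, Blvrb, Fth1 and Slc40a1 (brightest probe set) and mean level of 3 marker lists in each heart, as log2 difference from the mean of the 6 hearts, with mutant symbols filled and wild-type symbols open. The eM hearts (triangles) are low for Blvrb, Fth1, Slc40a1, red cells and macrophages but not for heart muscle, and Hmox1 orders the hearts by genotype instead. The liver, fibroblast and epicardial, and endothelial lists, not drawn, also averaged lower in both eM hearts than in every eI heart.

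Genes around these members were read from lists of haem and iron pathways, each gene at its brightest probe set. Of 88 tested genes, 9 were called lower (10.2%) and 2 higher (2.27%) in eM hearts by limma, against 5.7% and 4.3% of all 13572 tested genes. The lists were chosen with earlier results of these data known, so these shares are a description only. In haem synthesis 3 of 12 were lower and 0 higher, with a list median of -0.26 beside -0.03 over all genes. Alas2, the red cell form of the first enzyme, read 6.9996 and 6.80 in eM hearts, against 9.20, 9.05, 7.99 and 9.22 in eI hearts. Both eM hearts were below all others, and the difference was -1.97 ± 0.32 (SE), 3.90-fold lower (limma, adjusted p = 0.0169). Alas1, the form of other tissues, was lower by -0.59 and Fech, which inserts the iron, by -0.57, while Urod (-0.47) did not pass. Between genotypes the largest differences of this list were 0.41 for Alas2 and 0.28 for Cpox, an oxidase of the pathway.

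Of the mitochondrial iron and iron-sulphur cluster genes 1 of 12 was called, lower in eM, with a median of -0.19. It was Slc25a37, mitoferrin, which carries iron into mitochondria and is known for its use in red cell precursors: 8.64 and 8.61 in eM hearts, against 10.27, 10.06, 9.23 and 10.39 in eI hearts (-1.36 ± 0.31, SE; limma, adjusted p = 0.0403). Hscb (-0.46), Isca1 (-0.29) and Isca2 (-0.26), which help build clusters, did not pass. The largest mutant minus wild-type differences of this list were 0.25 for Slc25a37 and -0.24 for Lyrm4, another cluster assembly gene.

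Among 20 tested genes of iron uptake, storage, export and sensing, 1 was lower in eM hearts and 0 higher, and the median was 0.04. It was Hfe, whose product binds the transferrin receptor, at 5.72 and 6.62 in eM and 7.09 to 7.28 in eI hearts (-0.98 ± 0.22, SE; limma, adjusted p = 0.0384). Bmp6, a signal for hepcidin known from the liver, gave -0.39, Pcbp2, an iron chaperone, 0.27, and Heph, a ferroxidase that works with ferroportin, -0.52, none past the threshold. Slc39a8, a metal importer, had the largest genotype difference of the list (0.46), with wild-type 1 low at 8.39 and the other 5 hearts between 9.23 and 9.65. Of 9 haem transport and scavenging genes 0 were lower and 1 higher in eM. This was Lrp1, a receptor that takes up haem bound to haemopexin, at 8.71 and 8.94 in eM and 7.86 to 8.21 in eI hearts (0.82 ± 0.14, SE; limma, adjusted p = 0.019). Abcc5 (-0.44), Pgrmc1 (-0.26) and Slc48a1, a haem transporter (-0.28), did not pass, and Flvcr1, a haem exporter, differed by 0.23 between genotypes.

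NRF2, BACH1 and their targets had 3 of 23 genes lower and 0 higher in eM hearts, with a median of 0.02. These were Gstm1, a glutathione transferase (-0.84), Ephx1, an epoxide hydrolase (-0.86), and Sqstm1, an autophagy adaptor (-0.36). Cbr1, a carbonyl reductase (-0.53), did not pass (limma, adjusted p = 0.0518). The largest differences of this list between genotypes were -0.26 for Gstm1 and 0.21 for Sqstm1, both with overlap, beside 0.30 for Hmox1 and 0.14 for Nqo1. Of 12 other antioxidant enzymes, Sod2, the mitochondrial superoxide dismutase, was lower in eM (-0.43) and Gpx3, the secreted glutathione peroxidase, higher (0.39), with a median of -0.07. Prdx2 (-0.28) and Cat, catalase (0.32), did not pass.

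**Figure D4:**
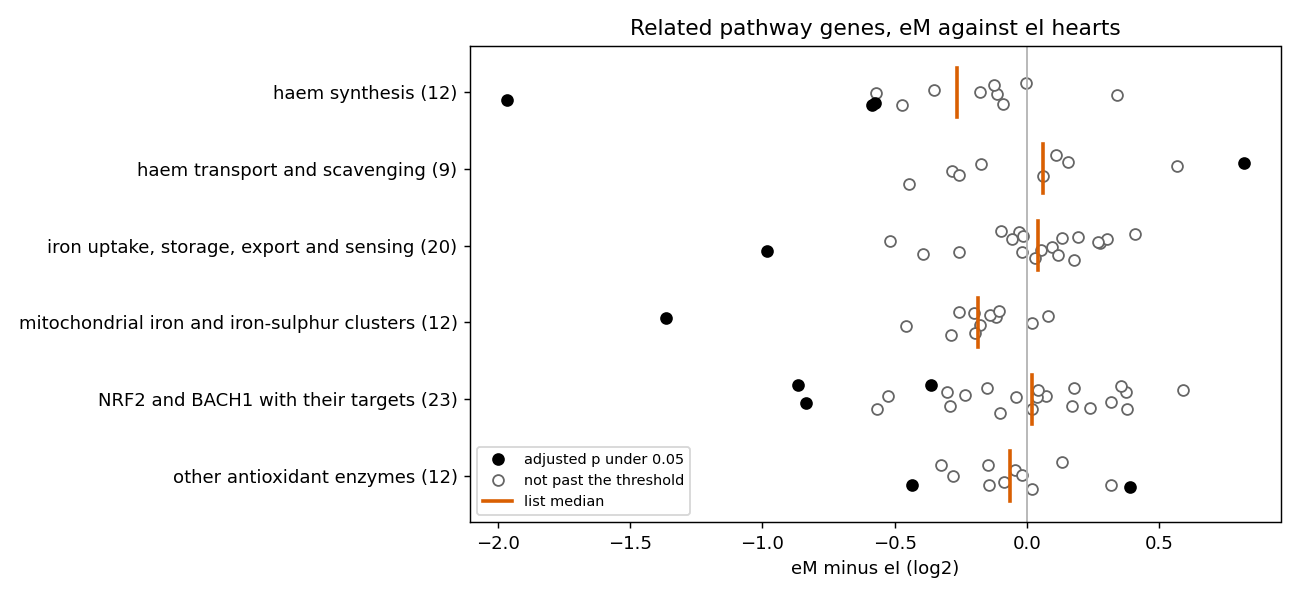
Difference between eM and eI hearts (log2, genotype in the model) of each tested gene in 6 pathway lists, with the number of genes in brackets, filled symbols past an adjusted p of 0.05 and a bar at the list median. Haem synthesis has the lowest median (-0.26), with Alas2 at -1.97, and Lrp1 (0.82) and Gpx3 (0.39) are the genes called higher.

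The genes whose levels followed Hmox1 most closely over the 6 hearts were ranked by Pearson's r among 5447 tested genes with at least the spread of Hmox1 (SD 0.19). The first 5 were Hspa1b, a heat shock protein (r = 0.970), Sema3d, a guidance factor (0.961), Bnc1, a zinc finger protein (0.950), Fzd6, a Wnt receptor (0.944), and Tspyl5 (0.939). These r values describe 6 arrays that differ in genotype, letters and sex, and no p is given. Because Hmox1 was chosen for its separation of the genotypes, this ranking favours other genes that are higher in mutant hearts. The mutant minus wild-type differences of the 5 ran from 0.35 for Tspyl5 to 0.66 for Fzd6. Shared regulation with Hmox1 was not tested. The Hspa1b probe set has the suffix for probes that may also bind other transcripts. It read 6.66, 6.71 and 6.34 in mutants 1 to 3 and 6.26, 6.12 and 6.18 in wild-types 1 to 3. The other members followed Hmox1 less, with r from -0.39 for Tfrc to 0.39 for Nqo1.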

How the data were processed

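RNA of 6 mouse hearts was labelled with biotin and hybridised to 1 array each. The deposited values are log2 intensities that the authors made with RMA, per the submitters' processing notes, with no version; no scanner files were used here. Genes were named from GEO's platform annotation, and 34741 gene IDs matched RefSeq's GRCm38.p6 table. The 932 probe sets naming several genes and the 9160 unnamed ones were read for no gene. Those that were not dim stayed in the fits and in the shares over all tested probe sets. Of 45037 probe sets without array controls, those in the lowest 40% of means (below 5.38) were left out, leaving 27022. Contrasts were fitted with limma 3.58.1 in R 4.3.3 (lmFit, eBayes, two-sided, Benjamini-Hochberg over all tested probe sets, threshold 0.05): mutant minus wild type with no covariate, eM minus eI with genotype, and their interaction. Other genes were read at their brightest probe set. Figures were drawn with matplotlib 3.10.9.

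Members and gene lists were chosen with earlier results of these data known. Pathway genes named are, per list, the 4 of smallest p for eM minus eI and the 2 of largest difference between genotypes. The marker genes Actc1, Myl2, Csf1r, C1qb, Lyve1, Stab1 and Slc4a1 were picked for naming after their values were seen. Same-numbered hearts of both genotypes correlated at 0.18, 0.36 and 0.74 in their deviations from the group means, so by the rule used (over 0.1 for every pair) the numbers, which come from the titles, count as paired. Wild-type 1 with mutant 2 (0.49) and wild-type 2 with mutant 1 (0.47) correlated more than the same-numbered pairs 1 and 2, so the numbers match eI hearts no better than crossed ones. Alternatives were other filters, quantile normalization, median centring, trend and robust variance, array weights, blocks, other thresholds, the Xist level as a covariate, and leaving out each heart. The number of arrays limits the precision.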

Additional observations from a re-analysis of the deposited data

Results flagged for a closer look

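Of 12 ordinary member probe sets, 2 had a single heart far from the other eI hearts, by Dixon's ratio at its 95% critical value for 4 samples (ratios of 0.938 and 0.885), which chance passes in about 1 of 20 groups. Both times it was wild-type 1. Its dimmer Fth1 probe set read 12.78, with the nearest eI heart at 13.10, and its brighter Slc40a1 probe set 7.46, with the nearest at 8.13. The red cell list was also lowest there among eI hearts (8.94), as were the macrophage (6.69), liver (6.65) and heart muscle lists (13.40). So were the endothelial list, by very little, and most of the pathway lists. The part of these cell types was not tested.

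For 3 of the 11 tested member probe sets every mutant eI heart lay on one side of every wild-type eI heart, and the eM pair lay the opposite way, which 19.4% of all tested probe sets did as well. The mutant minus wild-type difference of the brighter Fth1 probe set was -0.27 in eM and 0.10 in eI, that of the dimmer Slc40a1 probe set -0.40 in eM and 0.22 in eI, and that of the brightest Tfrc probe set 0.26 in eM and -0.17 in eI. The interaction term did not pass in limma (adjusted p = 0.911, 0.909 and 0.916).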

How the results depend on the processing

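Between genotypes, limma called 0 probe sets with the replicate block, with the letters as a block, within eI hearts and under the other filters, normalizations and variance settings; leaving out single hearts gave 0 to 2. The replicate block changed no call, and it could not be fitted for eM minus eI, where number 3 and eM are the same hearts. The p-values of eM minus eI therefore take all hearts as unpaired, also the eM hearts, which share a number. The interaction, not run with array weights, had 0 calls under the filters, normalizations and variance settings tried. The Hmox1 difference ranged from 0.12 to 0.44 over 19 alternatives; its direction was fixed by how the gene was chosen. The genotype difference of Slc40a1 ran from -0.43 to 0.49 and that of Blvrb from -0.22 to 0.42. Between letters, leaving out single hearts gave 1 to 4333 probe sets and 0 to 6 member probe sets. At an adjusted p of 0.01 limma called 607 and 0 members, at 0.1 it called 5343 and 6 members. With array weights it called 6 members and 4308 of all probe sets. The cause was not tested. Over 19 alternatives the eM minus eI difference was -1.22 to -0.65 for Blvrb and -0.77 to -0.40 for Fth1. It was -1.80 to -0.37 for Slc40a1 at its brighter probe set. With the Xist level as a covariate Blvrb and Fth1 missed the threshold (limma, adjusted p = 0.0801 and 0.0833). How far dim probe sets lay above background is not known.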
